A study of Mus musculus with 26 samples.

Results

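Assays A79, C29 and C64 are 3 of the 315 positions of a stem-loop RT-qPCR panel that read mature microRNAs (miRNAs) in mouse cells. They were chosen by their Ct values in induced pluripotent stem cells (iPSC) and in the parent fibroblasts, as assays that read higher in iPSC, and they lie outside the run of neighbouring positions B71 to B77, where most of the strongest such signals sit. Each assay gives a threshold cycle (Ct), the PCR cycle at which the fluorescent probe crosses its threshold, so that a higher Ct means less RNA. The rows of the Ct table carry plate positions (plates A to D) and are not paired with miRNA names, so the 3 assays are called by position.

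Mature miRNAs are short RNAs cut from hairpin precursors, and they lower the output of messenger RNAs that match their seed, the bases near the 5′ end. Many miRNA genes lie in clusters that are transcribed together, so that members of a cluster often rise and fall as a group. In mouse pluripotent cells a few such clusters supply much of the miRNA pool, and they are switched on during reprogramming and off during differentiation. Which of these, if any, the 3 assays read is not stated in the sources used here.

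The 26 samples fall into 7 groups. The iPSC (n = 5 clones) were made from tail-tip fibroblasts, of which 5 samples were measured, and D3 and R1, 2 lines of embryonic stem cells (ESC), gave 3 samples each. All iPSC and ESC were kept on inactivated mouse embryonic feeder fibroblasts with leukemia inhibitory factor. The activin-treated iPSC (n = 4) came from clones 2 and 3, with 2 samples per clone, and were grown for 5 days off feeders in low serum with activin A, a secreted factor of the TGF-beta family that promotes endoderm formation. The dose is 100 ng/ml in the treatment protocol, while the sample labels write the same figure per µl. Activin and the removal of feeders and of leukemia inhibitory factor went together and cannot be told apart. Adult hepatocytes and pancreatic islets, isolated from C57BL/6 mice, gave 3 samples each. Outside the iPSC clones, separate cultures or animals are not stated for the samples of a group, so the p-values rest on a spread among samples that may be technical. The number of assays with a Ct below 35 ran from 187 in fibroblast replicate 5 to 276. In bulk samples, fewer cells of a type and less RNA per cell cannot be told apart.

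Assay A79 was detected in every cell type, and fibroblasts were the group where it was low. Its Ct was 26.8, 26.6, 25.7, 27.4 and 23.8 in iPSC clones 1 to 5. In fibroblasts it was 30.7, 34.1 and 29.3 in replicates 1 to 3, with no Ct in replicates 4 and 5. Every iPSC clone thus read earlier than every fibroblast sample. D3 cells gave 27.1, 27.3 and 26.3, and R1 cells 26.6, 26.4 and 26.02. Islets gave 24.6, 24.3 and 25.2, and hepatocytes 27.0, 26.2 and 27.4. The adult tissues therefore lay in the same range of cycles as the pluripotent cells, and the name of a pluripotent assay is not borne out for A79.

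Assay C29 behaved otherwise. It had no Ct in any of the 5 fibroblast samples. In iPSC clones 1 to 5 its Ct was 31.2, 27.5, 29.6, 27.8 and 27.3. The ESC samples lay close to these, with 28.3, 27.7 and 27.3 in D3 and 26.3, 27.5 and 26.4 in R1. Among islets only replicate 1 had a Ct, at 38.8, and hepatocytes gave 31.2 in replicate 2, 38.7 in replicate 3 and none in replicate 1. The lowest Ct values came from the activin-treated iPSC, with 25.4 and 22.6 in clone 2 and 20.6 and 21.4 in clone 3.

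Assay C64 separated the pluripotent cells from the differentiated ones by the widest margin of the 3. Its Ct was 23.8, 22, 22.8, 21.2 and 20.7 in iPSC clones 1 to 5, and 22.4, 22.9, 20.2 and 20.1 in the activin-treated samples. D3 cells gave 23.1, 22.5 and 22.2. R1 cells were uneven, with 28.0 in replicate 1, 23.9 in replicate 2 and 21.1 in replicate 3. Fibroblasts had a late Ct of 39.1 in replicate 1 and 37.2 in replicate 3 and none in the other samples. Islets gave 35.02, 35.09 and 34.93, and hepatocytes 37.2, 38.5 and 39.2. All 15 pluripotent and activin-treated samples therefore read earlier than all 11 differentiated ones, by several cycles even for R1 replicate 1.

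**Figure D1:**
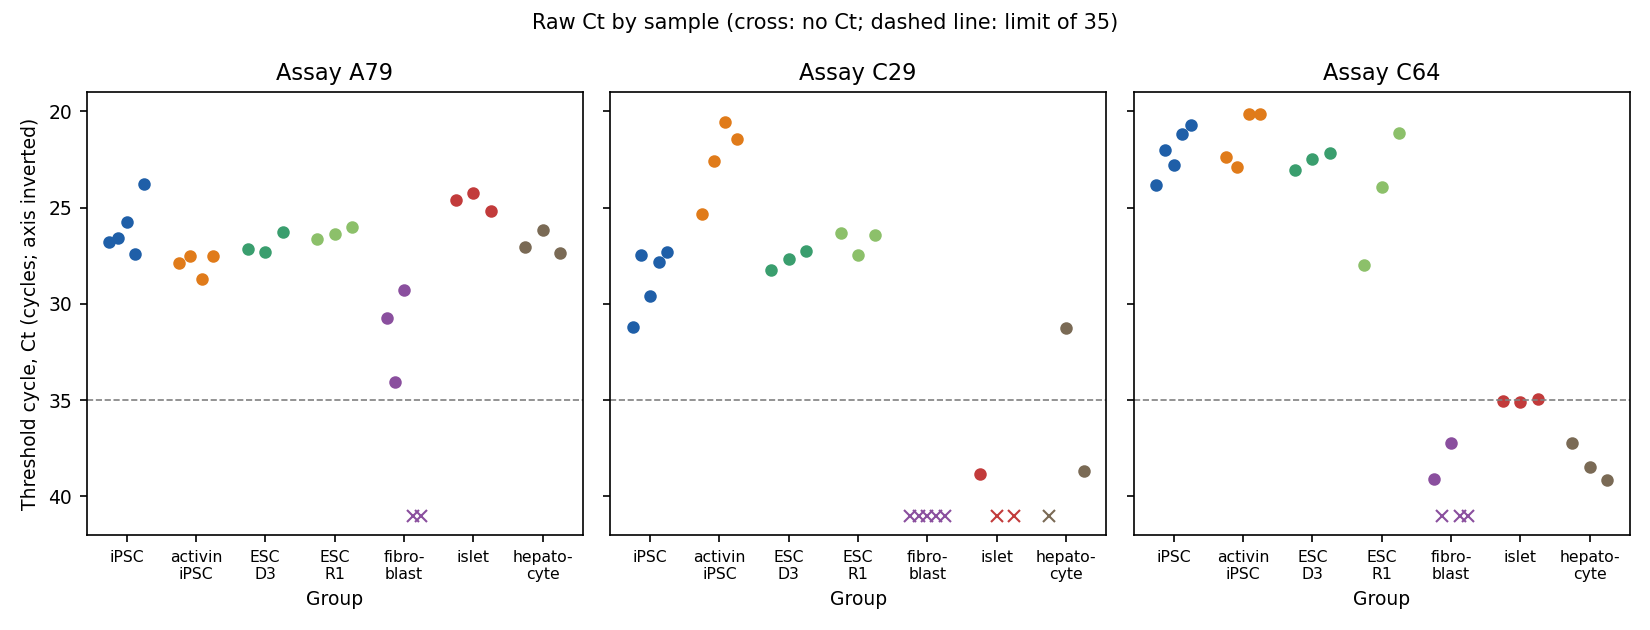
Raw Ct (cycles, axis inverted so that more RNA is higher) of A79, C29 and C64 in each sample of the 7 groups; crosses at the foot mark samples without a Ct, and the dashed line is the limit of 35. A79 is low in fibroblasts alone, and C29 reaches its lowest Ct, 20.6, after activin. C64 lies at 28.0 or below in all pluripotent and activin-treated samples. It lies at 34.9 or above, or without a Ct, in all fibroblasts, islets and hepatocytes.

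A raw Ct also follows how much amplifiable RNA entered the reaction, so levels were set against a reference. Log2 relative expression is the reference Ct minus the assay Ct, on which a difference of 1 is a doubling, and a value without a Ct or above 35 was set to 35. The reference available for all 26 samples was the mean over assays that stayed below 35 throughout, 87 on plates A and B (for A79) and 26 on plate C (for C29 and C64). The authors normalized to the small nuclear RNA RNU6, whose Ct could be recovered for 20 samples, all but the ESC. Values at the limit have no order, and their spread reflects the reference. The 3 assays are not compared with each other in level, since each has its own efficiency.

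On this mean Ct scale the log2 relative expression of A79 was highest in R1 (1.63 ± 0.40, SD, n = 3). The iPSC followed at 1.44 ± 1.13 (SD, n = 5), islets at 0.91 ± 0.65 (SD, n = 3), D3 at 0.24 ± 0.44 (SD, n = 3) and hepatocytes at -0.42 ± 1.11 (SD, n = 3). Activin-treated iPSC stood at -1.61 ± 0.23 (SD, n = 4 samples of 2 clones) and fibroblasts at -6.49 ± 1.41 (SD, n = 5). Neighbouring groups in this order overlapped in their samples, except that all treated iPSC lay above all fibroblasts.

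For C29 the order began with the activin-treated iPSC at 2.64 ± 1.34 (SD, n = 4 samples of 2 clones), ahead of R1 at 0.01 ± 1.20 (SD, n = 3) and D3 at -1.12 ± 0.24 (SD, n = 3). Among these 3 groups, neighbours in the order overlapped. The iPSC came next at -2.11 ± 0.61 (SD, n = 5), then hepatocytes at -5.22 ± 1.53 (SD, n = 3), each apart from the group above it. The iPSC were apart from D3 only narrowly, with the highest clone at -1.32 and the lowest D3 sample at -1.30. Hepatocyte replicate 2, at -3.49, was the one differentiated sample measured below 35.

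The order for C64 was iPSC at 4.47 ± 0.60 (SD, n = 5), D3 at 4.05 ± 0.17 (SD, n = 3), activin-treated iPSC at 3.75 ± 1.07 (SD, n = 4 samples of 2 clones) and R1 at 2.42 ± 2.48 (SD, n = 3). These groups overlapped. Below them came a gap, with R1 replicate 1, the lowest pluripotent sample, at -0.42 and the highest differentiated sample, a fibroblast at the limit, at -5.68.

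The contrast that chose the assays is given as a description, without a test. Relative to RNU6, the log2 difference of iPSC minus fibroblasts was 11.31 (SE 1.44) for C64, 4.95 (SE 0.97) for A79 and 4.73 (SE 1.49) for C29. Relative to the mean Ct the differences were 13.86, 7.93 and 7.28. For C29 and C64 every fibroblast sample stood at the limit, so that these sizes depend on it: with a limit of 32 in place of 35, C29 was at 1.73 and C64 at 8.31 relative to RNU6, and with 40 at 9.73 and 15.57. Fibroblast replicates 4 and 5 of A79 were also at the limit, and A79 was at 3.34 with 32 and at 6.95 with 40. The authors' deposited table, in which a negative value means more RNA in iPSC, lists -16.87 for C64 and -4.39 for A79, and it has no value for C29. Its values keep Ct above 35 and leave out samples without a Ct, so they are on another measure. For C64 the fibroblast side rests on Ct values of 39.1 and 37.2, and for C29 no fibroblast sample had a Ct. With values without a Ct left missing, A79 relative to RNU6 was at 4.39 here too. On the mean Ct scale every iPSC clone lay above every fibroblast sample for all 3 assays, as chosen, and for 22.1% of the assays tested. Over the panel, limma called 20 of 271 assays higher in iPSC relative to RNU6, 7.38% of those tested. The 3 assays are among these 20 by choice, beside all 7 of the run B71 to B77 and 10 others. C64 ranked 4 by size among the 20, behind B74, B77 and B72, and A79 and C29 ranked 9 and 10, directly behind B71 at 6.60 and ahead of C51 at 4.39.

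By detection alone, 9 of 315 assays (2.86%) stayed below 35 in each of the 5 clones while every fibroblast sample was at 35 or later, C29 and C64 among them. All samples of iPSC, ESC and treated iPSC were below 35, with no fibroblast sample, for 8 assays (2.54%). Besides C29 and C64 these were B71, B72, B75, C11, C61 and C67. A79 is outside both counts because 3 fibroblast samples had a Ct below 35.

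Since ESC, islets and hepatocytes took no part in the choice, the difference between them could be tested. C29 and C64 read higher in ESC than in either adult tissue, and A79 did not pass the threshold in either comparison. C29 and C64 met the filter on low values through ESC alone: C29 was below 35 in 0 of 3 islet and 1 of 3 hepatocyte samples, and C64 in 1 of 3 and 0 of 3. An assay that enters in this way has to differ, and its size is set in part by the limit of 35, so the p-values of C29 and C64 are given beside their values and not as further support. Against islets, the log2 difference of ESC (n = 6, D3 and R1 together) was 11.61 for C64 (SE 1.02, limma adjusted p 1.09e-08) and 7.85 for C29 (SE 0.96, limma adjusted p 1.76e-06). For A79 it was 0.02 (SE 0.73, 95% interval -1.50 to 1.55, limma adjusted p 0.982). Limma called 64 of 295 assays higher in ESC than in islets, 21.7%, and 63 lower, 21.4%, and the median over all assays tested was -0.14. C64 stood at rank 6 and C29 at rank 11 from the highest difference.

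Against hepatocytes the log2 difference of ESC was 9.71 for C64 (SE 1.02, limma adjusted p 9.27e-08) and 4.67 for C29 (SE 0.96, limma adjusted p 0.000356). A79 was at 1.36 (SE 0.73, 95% interval -0.16 to 2.88, limma adjusted p 0.118). Here 102 of 279 assays, 36.6%, were called higher in ESC and the median was 0.83, so a call for higher expression was common. C64 ranked 8 and C29 49 from the highest. The sizes of both assays followed the limit. With 32 in its place C29 was at 4.85 against islets and 2.67 against hepatocytes, and with 40 at 12.46 and 7.56. C64 was at 8.63 and 6.71 with 32, and at 11.64 and 13.00 with 40. Without R1 replicate 1, the uneven ESC sample, C64 stood at 12.33 against islets and 10.44 against hepatocytes.

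**Figure D2:**
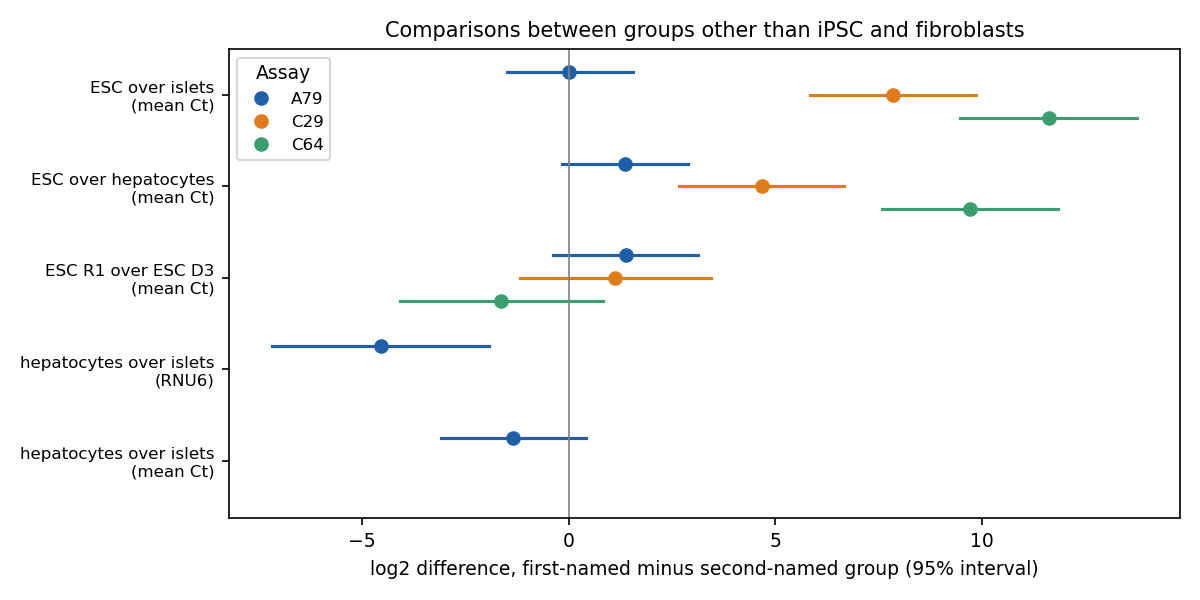
Log2 differences (first-named minus second-named group) with 95% intervals from limma for A79, C29 and C64, between groups other than iPSC and fibroblasts, with the spread estimated over all groups in the fit; the reference is in brackets. C64 and C29 lie to the right of 0 for ESC over both tissues, at 11.61 and 7.85 over islets. Both met the filter on low values through ESC alone, so they had to differ. Their sizes are set in part by the limit for late Ct values and are not further support. The interval of A79 covers 0 for ESC over both tissues and moves with the reference between hepatocytes and islets.

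Hepatocytes and islets could be compared for A79 alone, because C29 and C64 did not reach a Ct below 35 in enough of these samples. Relative to RNU6, A79 was lower in hepatocytes than in islets by a log2 difference of -4.55 (SE 1.25, limma adjusted p 0.00669). The authors' deposited table lists -4.55 for islets minus hepatocytes in normalized Ct, the same by construction, since the RNU6 Ct was recovered from that table. It also lists 5.03 for C29 and -2.16 for C64, which rest mostly on Ct values above 35 and were not tested here. All tested assays had a median of -3.42 in this comparison, and 117 of 276 (42.4%) were called lower, or 80 in either direction without islet replicate 3 against 121 with it. A79 thus fell along with a large share of the panel. Relative to the mean Ct the difference was -1.34 (SE 0.84, limma adjusted p 0.238) and was not called (27.5% of assays were called lower), and the samples then ran from 0.16 to 1.31 in islets and from -1.51 to 0.71 in hepatocytes, an overlap. The call was also lost with a limit of 40 (limma adjusted p 0.0523) and with these groups fitted alone (limma adjusted p 0.0913).

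Between the ESC lines no assay of the panel was called by limma (0 of 273, 0%; 3 had an unadjusted p under 0.05). R1 minus D3 was 1.38 for A79 (95% interval -0.38 to 3.14), 1.13 for C29 (-1.18 to 3.44) and -1.63 for C64 (-4.09 to 0.83), each with a limma adjusted p of 1. All 3 R1 samples of A79 lay above all 3 D3 samples, as did 7.33% of the assays tested. The difference of C64 was -0.21 without R1 replicate 1 and -2.50 without R1 replicate 3.

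iPSC and ESC were set side by side without a test, since the iPSC chose the assays. On the mean Ct scale the log2 difference of iPSC minus ESC was 0.51 (SE 0.62) for A79 and 1.24 (SE 0.87) for C64, and 0.51 for C64 without R1 replicate 1. For A79 it was 0.09 without clone 5. For C29 it was -1.55 (SE 0.82). Every iPSC clone of C29 lay below every ESC sample, though narrowly, with the highest clone at -1.32 and the lowest ESC sample at -1.30. Of 273 assays, 2 (0.733%) lay wholly lower in iPSC, C29 and C61, and 3 (1.1%) wholly higher. Against fibroblasts, the ESC stood at log2 differences of 12.62 (C64), 8.83 (C29) and 7.43 (A79), with the same fibroblast samples as for iPSC.

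Activin treatment went with opposite movements of A79 and C29 and left C64 near its untreated level on the mean Ct scale. The untreated iPSC chose the assays, so these values too are a description. In clone 2 the log2 relative expression of C29 went from -1.72 to 0.78 and 2.58, and in clone 3 from -2.11 to 3.71 and 3.50. All 4 treated samples lay above all 5 untreated clones, as for 10 of 284 assays (3.52%). A79 went from 0.22 to -1.38 and -1.51 in clone 2 and from 1.92 to -1.92 and -1.64 in clone 3. All its treated samples lay below all untreated clones, as for another 10 of 284 assays (3.52%). C64 went from 3.75 to 3.75 and 2.28 in clone 2 and from 4.67 to 4.14 and 4.82 in clone 3. The sample at 2.28 lay below the untreated clones, which ran from 3.75 to 5.29, and the other treated samples at their level.

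**Figure D3:**
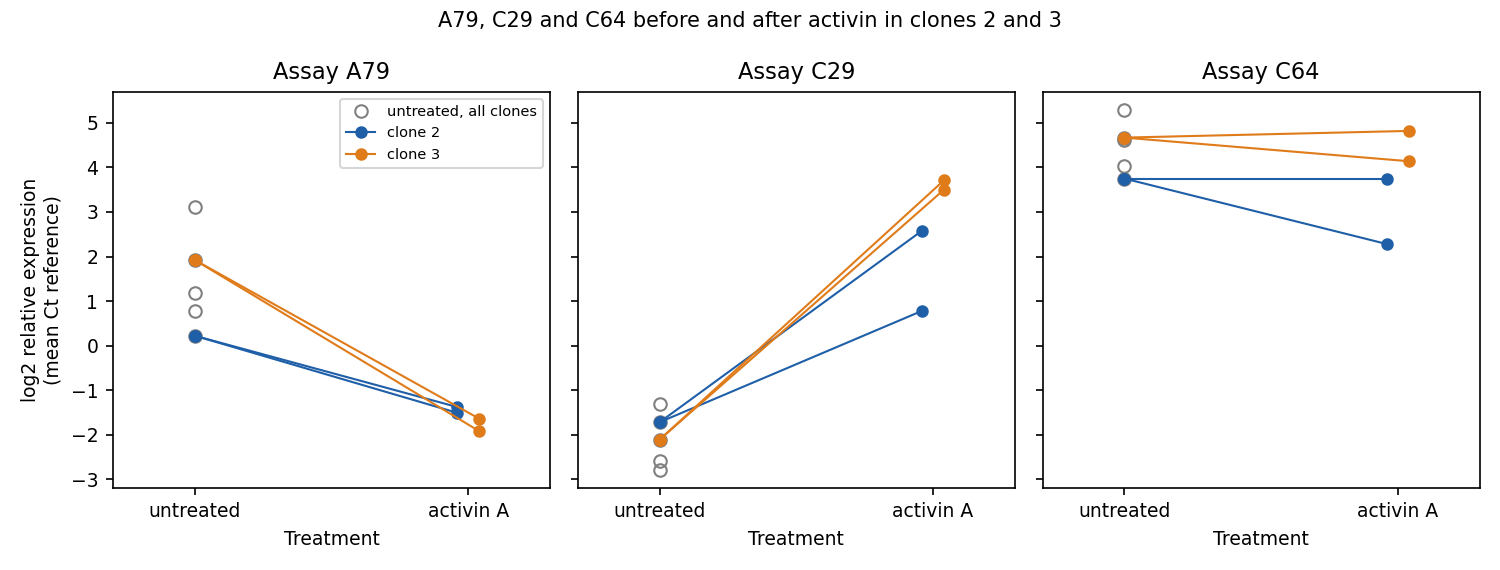
Log2 relative expression (mean Ct reference) of A79, C29 and C64 before and after 5 days with activin A; lines join the untreated sample of clone 2 or 3 to its 2 treated samples, and open circles are all 5 untreated clones. C29 goes up in both clones, to between 0.78 and 3.71, A79 goes down to between -1.92 and -1.38, and C64 overlaps its untreated range.

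Within clones 2 and 3, treated minus untreated log2 relative expression (mean Ct reference) was 3.40 and 5.72 for C29, -1.67 and -3.70 for A79, and -0.74 and -0.19 for C64. With the 2 treated clones set against all 5 untreated clones, the log2 difference on that scale was 4.75 (SE 1.14) for C29, -3.06 (SE 0.86) for A79 and -0.73 (SE 1.21) for C64. All tested assays had a median of -0.11. Relative to RNU6 the differences were 8.30 (SE 1.98), -1.54 (SE 1.28) and 2.83 (SE 1.91), against a median of 1.68. The sign of C64 therefore depended on the reference, and the treated and untreated samples of A79 overlapped relative to RNU6. The recovered RNU6 of plate C was 8.22 cycles in replicate 1 of treated clone 3, on a scale centred on 0, while the other treated samples ran from -2.55 to 0.38. Leaving that sample out put C29 at 5.40 and C64 at 0.14, still relative to RNU6, and leaving out the other sample of treated clone 3 put C64 at 5.51. The authors' deposited table, in untreated minus treated cycles, lists 8.30 for C29, 2.83 for C64 and -1.54 for A79, again the same by construction.

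The 3 assays did not share one profile. For each, the assays of the same plates with the most similar pattern over the 7 groups were found by the mean absolute difference of group means, each assay centred on its own mean. Nearest to C29 were C67 at 0.48 and C61 at 0.70, then C51 at 1.51, against a median of 3.66 over the 94 other assays of plate C. For C64 the nearest were C67 at 2.24, C29 at 2.32 and C61 at 2.89 (median 5.70). Assays at the limit take identical values in fibroblasts and islets, which brings them together by construction. Over iPSC, treated iPSC, D3 and R1 alone, where all samples had a Ct, C61 and C67 were still nearest to C29 of 47 assays, at 0.16 and 0.40. C64 was then among the least similar to them, with C67, C29 and C61 at ranks 45, 46 and 47, and C69 and C53 were nearest to it, at 0.40 each (median 0.83). The likeness of C64 to the other assays of this kind thus rested on the differentiated groups.

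C61 and C67, like C29, read earlier in every treated sample than in the untreated sample of the same clone. C61 had a Ct of 29.4 in untreated clone 2 and 27.3 and 24.1 in its treated samples, and 30.7 in clone 3 and 22.1 and 23.1 after treatment. C67 went from 30.1 to 25.5 and 23.02 in clone 2 and from 30.3 to 22.1 and 23.8 in clone 3. On the mean Ct scale treated minus untreated iPSC was 5.07 for C61 and 4.01 for C67, beside 4.75 for C29. The groups did not overlap for any of them.

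**Figure D4:**
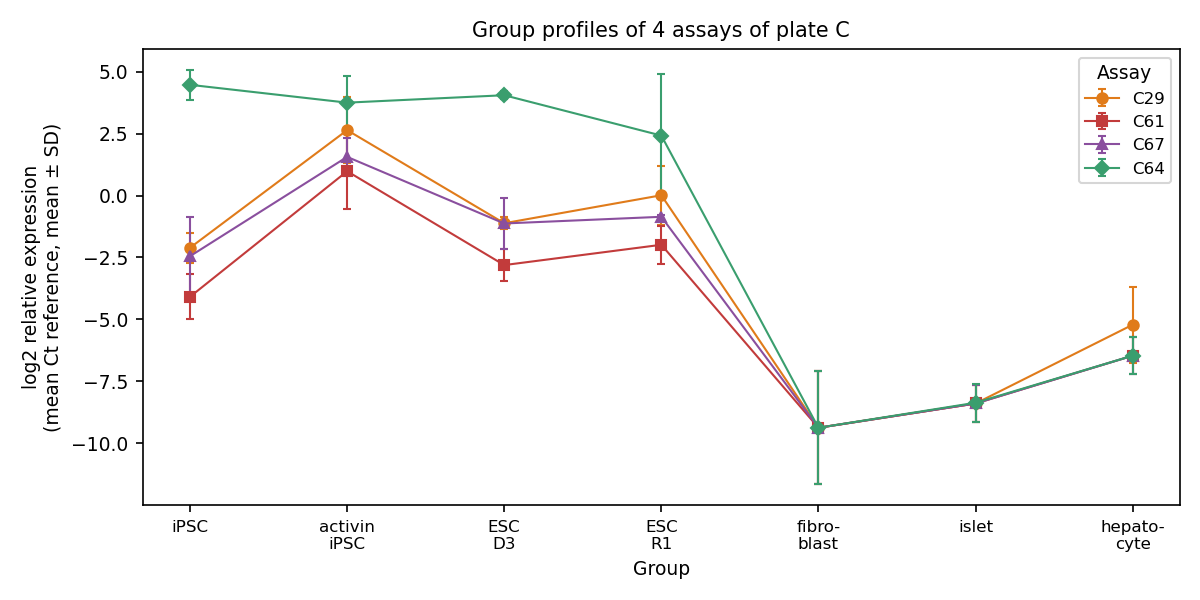
Group means ± SD of log2 relative expression (mean Ct reference) for C29, C61, C67 and C64 in the 7 groups (n = 5, 4, 3, 3, 5, 3 and 3 samples from left to right). C29, C61 and C67 peak after activin, at 2.64, 0.98 and 1.56, while C64 is highest in untreated iPSC at 4.47; nearly all values of fibroblasts, islets and hepatocytes lie at the limit.

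For A79 the nearest assays on plates A and B were B58 at 1.25, B54 at 1.35 and B47 at 1.45, against a median of 2.39 over 191 others. These were also lowest in fibroblasts, at -5.14, -5.26 and -5.20. All 3 had a Ct below 35 in the 3 islet and 3 hepatocyte samples, as A79 did.

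The plate neighbours of the 3 assays differed in their fibroblast readings. Over the panel, 33 of 315 assays (10.5%) had no fibroblast sample below 35. Of the 6 assays within 3 positions of C64, 4 had no fibroblast sample below 35, namely C61, C65, C66 and C67, and 2 of these, C61 and C67, were below 35 in all 15 pluripotent and treated samples. Of the 5 that could be tested, 2 were called higher in ESC than in islets and 3 higher than in hepatocytes, with 0 lower, beside 21.7% and 36.6% higher over all assays tested, and with so few assays these counts are not set apart from the panel. Among the 6 neighbours of C29, and likewise the 6 of A79, no assay lacked a fibroblast sample below 35. Of the neighbours of C29, 0 were called higher and 4 lower in ESC than in islets. Of those of A79, 0 were higher and 2 lower. Over all assays tested, 21.4% were called lower in ESC than in islets, and the counts of these few neighbours were not tested against that share. Against hepatocytes, 1 neighbour of C29 was called higher and 1 lower, and 0 of A79 higher and 1 lower (21.9% of all assays tested were lower). In the run B71 to B77 all 7 assays were called higher in ESC than in islets (median log2 difference 13.22) and 6 of 7 higher than in hepatocytes (median 11.36). Against islets all of the run but B73, and against hepatocytes all but B76, met the filter on low values through ESC alone. Their calls were thus largely fixed by the filter and are not further support. The adult samples of that run also lay mostly at the limit, so its sizes and those of C29 and C64 are not set against each other.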

How the data were processed

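MicroRNA was measured in 26 samples with TaqMan stem-loop assays, from 5 ng of total RNA per reaction and 40 PCR cycles, for 303 miRNAs, per the labels' protocols. The deposited table gives raw Ct for 315 positions, a score in PCR cycles without normalization, and 11.6% of its 8190 values have no Ct. No source used here gives the software or threshold settings. A second deposited table holds the authors' differences of RNU6-normalized Ct, which are on a log2 scale, although per the file headers they are 2 to the power of minus the difference.

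The RNU6 Ct of 20 samples was recovered from both tables by least squares per position set (A with B, C, D), with residuals up to 4.00e-09 cycles. It is known only up to a constant, which differs between islets with hepatocytes and the other groups. Group means were fitted with limma 3.58.1 in R 4.3.3, in 1 fit over all groups, with the treated duplicates of a clone averaged. An assay was tested where a Ct below 35 was reached by 50% or more of the samples in 1 of the groups compared. P-values were adjusted by Benjamini-Hochberg (threshold 0.05). The steps were checked on simulated data. RNU6 was the main reference, and the mean Ct that for comparisons with ESC.

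Named assays are the 3 chosen ones, the 3 most alike to each, their plate neighbours and the run B71 to B77. Named besides, after their values were seen, are C11, by its detection pattern, and C53 and C69. The latter were nearest to C64 over the pluripotent and treated groups alone. The assays and lists were chosen with earlier results of these data known. Replicate numbers were not taken to pair samples, since the deviations of same-numbered samples correlated between -0.15 and 0.21. The labels do name the clone of each treated sample. Alternatives covered the reference, the limit, the filter, the samples in the fit and each sample left out.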

Additional observations from a re-analysis of the deposited data

Results flagged for a closer look

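C64 in R1 replicate 1 stood at -0.42 in log2 relative expression, 3.92 below the nearest of the other 5 ESC samples. That gap was 0.84 of the whole range, above the Dixon 95% critical value of 0.625 for 6 samples. Of 12 groups of samples examined for the 3 assays, 1 was marked in this way, and chance marks about 1 group in 20. The fibroblast groups of C29 and C64 held the same values, set by the limit and the reference, so the 12 are not independent. In R1 replicate 1, A79 stood at 1.37, beside 2.09 and 1.41 in the other R1 samples, C29 at 1.25, above their -0.05 and -1.16, and 257 assays had a Ct below 35.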

How the results depend on the processing

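C29 and C64 stayed higher in ESC than in islets and hepatocytes under every alternative that gave a value, which is no independent support, since their adult samples lay almost wholly at the limit. Requiring a Ct below 35 throughout left neither assay to test, and with missing values left out C29 over islets and C64 over hepatocytes could not be fitted. Late Ct values limit these sizes, and the cause of the other changes below was not tested.

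A79 in ESC over islets turned negative with the mean Ct over all sets (-0.55), with quantile normalization (-1.18) and when single samples were left out (-0.35 to 0.24). In ESC over hepatocytes it was -0.08 with quantile normalization. In hepatocytes over islets its call was lost with the mean Ct per set (-1.34), the mean Ct over all sets (-1.01) and quantile normalization (-1.10), and, at -4.55, with a limit of 40 or the groups fitted alone. Requiring a Ct below 35 in all samples compared, which tests fewer assays, left 78 calls in ESC over islets, 91 in ESC over hepatocytes and 58 in hepatocytes over islets. The last count was 69 with the groups alone and 80 to 142 with single samples left out.

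For iPSC over fibroblasts, the mean Ct per set and over all sets gave 7.93 and 7.84 for A79, 7.28 and 7.41 for C29 and 13.86 and 13.98 for C64. Quantile normalization gave 7.22 for A79. Limits of 32 and 40 gave 3.34 and 6.95 for A79, 1.73 and 9.73 for C29, and 8.31 and 15.57 for C64. For ESC over fibroblasts the same limits gave 5.81 and 9.43, 5.83 and 13.83, and 9.62 and 16.87. For activin, A79 was at -3.06, -3.14 and -3.31 with the mean Ct per set, over all sets and quantile normalization.

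With the replicate number as a block, or the clone for activin, no call of the 3 assays changed: C64 over islets stayed at 11.61, and after activin the values were -1.37, 8.29 and 3.27 for A79, C29 and C64 relative to RNU6. The likeness over the pluripotent and treated groups alone was chosen after seeing the data.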

Other observations

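C66, a plate neighbour of C64 chosen after its values were seen, also had no fibroblast, islet or hepatocyte sample below 35, but moved the other way from C61 and C67. On the mean Ct scale it was wholly higher in iPSC than in ESC, by a log2 difference of 2.34, with clones between -5.37 and -3.37 and ESC samples between -8.34 and -5.69. Only 2 of 3 R1 samples and 3 of 4 treated samples had a Ct below 35. After activin its mean was -6.09, beside -4.38 in untreated iPSC. C11, the assay of plate C that shared the detection pattern without being a neighbour of C29 or C64, had a log2 difference of -0.14 between treated and untreated iPSC. Of the 9 assays detected below 35 in every clone but in none of the fibroblasts, C29, C61 and C67 were the ones with a positive difference after activin on the mean Ct scale; relative to RNU6, C64 too was positive, at 2.83, and the others were not compared.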
